A study of Mus musculus with 27 samples.

Results

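The comparison described here set the left ventricular messenger RNA of caPI3Kalpha mice against that of wild-type (WT) mice, both taken 7 days after transverse aortic constriction (TAC), surgery in which a tight suture round the aortic arch raises the pressure the ventricle works against. Its members were chosen by their labels and column names: 2 caPI3Kalpha TAC libraries, from hearts numbered 11 and 211, and 3 WT TAC libraries, from hearts numbered 1, 17 and 19. They are 5 of the 11 mRNA libraries and 5 of the 27 libraries of the series. All mice were adults of the FVB strain. The genotype of the first group is labelled PI3Kalpha mutant, and the series' own design text writes it caPI3Kalpha, where ca is the usual short form of constitutively active. The labels do not name the promoter of the transgene, the cells that carry it or the number of founder lines. The other 6 mRNA libraries, 2 of caPI3Kalpha sham and 4 of WT sham hearts, had a sham operation at the same interval and enter the model as the source of its spread and of the sham levels given below.

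Phosphoinositide 3-kinase alpha is the lipid kinase through which insulin and insulin-like growth factor receptors act on Akt, and in the heart it is known for its part in the growth that comes with development and exercise. Pressure load is known to add another response: cardiomyocytes take up a fetal gene programme and lower the genes of fatty acid oxidation, while fibroblasts and macrophages increase and lay down or remodel matrix. The series title speaks of a protective transcript signature of raised PI3Kalpha signalling, so the question addressed is which transcripts of the loaded ventricle differ between the genotypes.

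Values are RPKM (reads scaled by gene length and by the library's total reads), computed by the depositors and printed to 1 decimal, and the tested genes of each of the 11 libraries summed to between 202916.4 and 212396.3 RPKM. The depth of the libraries is unknown. The table lists genes that reach 3.0 RPKM in at least 1 library, so a gene that is low elsewhere enters through the group where it is high: 89 of the 519 genes called lower below reached that level in WT TAC hearts only (17.1%), as did 5.95% of all genes tested. Differences are on the log2(RPKM + 0.5) scale, as caPI3Kalpha TAC minus WT TAC, with standard errors (SE), and understate the change of genes near the floor. A gene was called when its Benjamini-Hochberg adjusted p from limma over 8987 genes was under 0.05. Each library is from a heart of its own number, so the spread is that between hearts.

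No label accounts for the strongest split among the 11 libraries: principal component 1 (52% of the variance) parts them into 2 sets. Set 1 held caPI3Kalpha TAC 11 and 211, WT TAC 1, both caPI3Kalpha sham libraries and WT sham 6. Set 2 held WT TAC 17 and 19 and the other WT sham libraries. WT TAC 1 was thus the only WT TAC library in the set of the caPI3Kalpha hearts. Spearman's rho over genes was 0.953 and 0.955 between it and the caPI3Kalpha TAC libraries, against 0.905 and 0.883 between it and WT TAC 17 and 19. Without WT TAC 1 the genotypes under load and the sets cannot be told apart. Values against WT TAC 1 alone, or from a fit with a term for the set, are therefore given where they change a call or differ from the main value by over 1.5-fold, and for Pik3ca, Postn, Ccl8 and Ucp3.

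The defining markers of the labelled tissue were abundant. Tnnt2, cardiac troponin T, lay at 2453.6 and 2399.6 RPKM in the caPI3Kalpha TAC libraries, against 2228.5, 2076.8 and 1855.9 RPKM in the WT TAC libraries, and the 7 cardiomyocyte markers examined lay between 953.5 and 5377.0 RPKM in the 5 libraries. None of the 7 (Myh6, Myl2, Myl3, Tnnt2, Tnni3, Actc1 and Pln) was called. Globin transcripts varied within the caPI3Kalpha TAC group: Hba-a1, an alpha globin, was at 314.4 RPKM in heart 11 and 12.5 RPKM in heart 211, against 82.8, 12.7 and 6.7 RPKM in the WT TAC hearts. Myl7, the atrial myosin light chain, was at 20.8 and 0.4 RPKM in caPI3Kalpha TAC 11 and 211, against 0.1, 0.7 and 1.4 RPKM in WT TAC 1, 17 and 19. Heart 11 was the highest of the 5 for 4 of 8 atrial genes, while the atrial list summed to 504.3 and 668.2 RPKM in caPI3Kalpha TAC 11 and 211, against 1238.2, 809.7 and 657.4 RPKM in WT TAC 1, 17 and 19, with Nppa as its main part. The sums of both lists overlapped between the groups, and none of the 6 red blood cell or 8 atrial genes was called.

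Of 8987 genes, 586 were called (6.52%), of which 67 were higher (0.746%) and 519 lower (5.78%) in caPI3Kalpha TAC than in WT TAC. Of these, 19 were at least 2-fold higher and 155 at least 2-fold lower. The median difference of all genes was -0.18. Quantile normalization moved that median to -0.02 and left 72 higher and 143 lower calls, and centring on library medians moved it to -0.01 and left 130 higher and 139 lower. The size of the excess of lower over higher calls thus depended on the scaling, and the differences below are to be read against the median of -0.18. Values of the groups did not overlap for 4289 genes (47.7%), 1037 with caPI3Kalpha TAC above (11.5%) and 3252 with it below (36.2%).

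**Figure D1:**
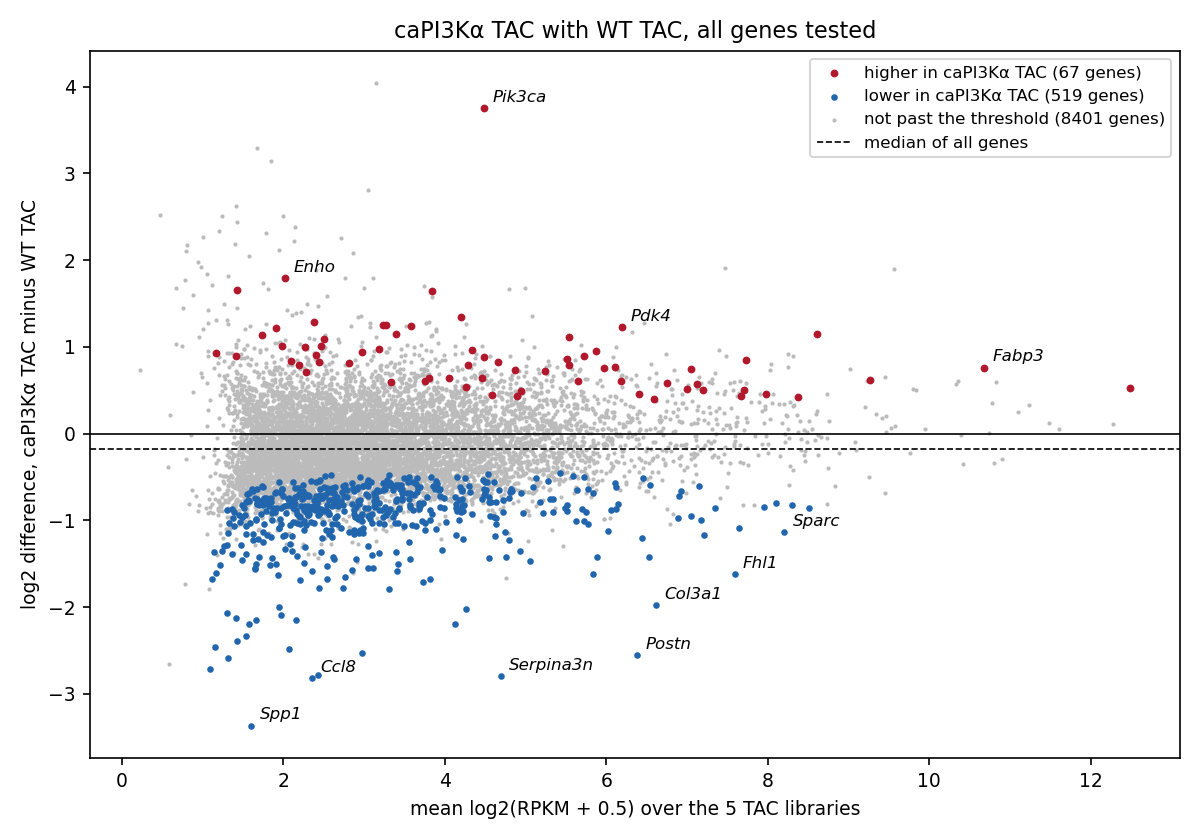
Each point is a gene, placed by its mean log2(RPKM + 0.5) over the 5 TAC libraries (horizontal) and by its log2 difference, caPI3Kalpha TAC minus WT TAC (vertical). Red points are the 67 genes called higher, blue points the 519 called lower, and the dashed line is the median of all genes at -0.18. Pik3ca stands alone above 2 among the called genes, while several matrix and immune genes lie below -2.

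The transgene check came first. Pik3ca, which encodes the alpha catalytic subunit itself, was at 110.5 and 101.3 RPKM in the caPI3Kalpha TAC hearts, against 5.6, 8.1 and 8.9 RPKM in the WT TAC hearts. The groups did not overlap, and the log2 difference was 3.75 (SE 0.26, adjusted p = 8.82e-05). Both caPI3Kalpha sham hearts were high as well, at 115.4 and 195.0 RPKM, against 5.3 to 8.5 RPKM in the 4 WT sham hearts. Reads from the transgene and from the mouse's own gene cannot be told apart in these values. Among sham hearts Pik3ca was the only gene called between the genotypes, 1 of 8987, with a difference of 4.32 (SE 0.24). Without WT sham 6 that count was 1824, and the sham genotypes then lie wholly in different library sets.

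Of 33 tested genes of the PI3K and Akt pathway, 1 (Pik3ca itself) was higher and 5 were lower, with a median of -0.30 against -0.18 for all genes, of which 5.78% were lower. After quantile normalization or centring 2 were lower, and Igf1r was not (adjusted p = 0.0907 and 0.0776). Of the 33, 3 reached the table's entry level of 3.0 RPKM in WT TAC hearts only, Igf1r among them. Of those that fell, 4 act on the growth factor side of the kinase. Igf1, the ligand insulin-like growth factor 1, was at 1.8 RPKM in both caPI3Kalpha TAC hearts, against 5.5, 7.5 and 7.9 RPKM in WT TAC hearts, a log2 difference of -1.68 (SE 0.25, adjusted p = 0.00787). In sham hearts it was at 2.6 and 1.4 RPKM in caPI3Kalpha and 2.7 to 4.3 RPKM in WT. By limma, the TAC and sham differences of Igf1 were not called unlike each other (adjusted p = 0.329). Igf2, the related ligand, was at 3.0 and 3.3 RPKM in caPI3Kalpha TAC and 8.6, 5.9 and 4.7 RPKM in WT TAC. The receptor gene Igf1r differed by -0.67 (SE 0.14) and Irs1, the adaptor that links these receptors to the kinase, by -0.94 (SE 0.16). These 4 lay below every WT TAC value. The call of Igf1 was lost without caPI3Kalpha TAC 11 or 211 (highest adjusted p 0.108), and those of Igf1r and Irs1 without either of these or WT TAC 17 or 19 (highest adjusted p 0.188).

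Other members of the pathway did not pass the test. Akt1 was at 23.9 and 24.7 RPKM in caPI3Kalpha TAC, against 35.6, 22.7 and 20.4 RPKM in WT TAC, so the groups overlapped. Its adjusted p was 0.861, while with the set term the difference was -0.52 (adjusted p = 0.0174). Foxo1, a transcription factor that Akt keeps out of the nucleus, differed by -0.22 (adjusted p = 0.295). Of 25 tested genes of FoxO action, muscle atrophy and autophagy, 1 was higher and 0 were lower (0.746% and 5.78% of all genes). Their median was 0.04. The atrophy ligases Fbxo32 (26.6 and 26.2 RPKM in caPI3Kalpha TAC; 29.4, 29.6 and 21.6 RPKM in WT TAC) and Trim63 (63.1 and 73.9 RPKM in caPI3Kalpha TAC; 57.0, 43.5 and 51.5 RPKM in WT TAC) did not pass the test, with adjusted p of 0.978 and 0.0884.

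Matrix genes were called lower in a larger share than all genes. Of 29 tested matricellular and adhesive matrix genes, 15 were lower and 0 higher (5.78% and 0.746% of all genes), and 20 lay below every WT TAC value (36.2% of all genes). Their median was -1.03, and 5 of the 29 reached the level of entry to the table in WT TAC hearts only. Postn, which encodes periostin, a matrix protein made by activated fibroblasts, was at 28.0 and 28.8 RPKM in caPI3Kalpha TAC hearts, against 142.9, 200.9 and 168.7 RPKM in WT TAC hearts. It was 5.87-fold lower (log2 -2.55, SE 0.18, adjusted p = 8.82e-05) and lower by a like amount against WT TAC 1 alone (-2.31). In bulk tissue fewer cells of a type and less RNA per cell cannot be told apart, here and for the cell-type genes below.

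Fn1, fibronectin, was at 5.4 and 7.9 RPKM in caPI3Kalpha TAC, against 51.8, 28.5 and 21.5 RPKM in WT TAC (log2 -2.19, SE 0.29). Sparc and Bgn, which encode the collagen-binding proteins osteonectin and biglycan, were far more abundant and fell less. Sparc was at 178.3 and 188.4 RPKM in caPI3Kalpha TAC and 443.0, 404.6 and 363.8 RPKM in WT TAC, a difference of -1.13 (SE 0.14). Spp1, osteopontin, was near the floor in caPI3Kalpha TAC, at 0.2 and 0.3 RPKM, against 15.8, 5.9 and 3.9 RPKM in WT TAC. Its difference, the largest among the called falls, was -3.37 (SE 0.50) and ran from -4.39 with a pseudocount of 0.1 to -2.73 with 1. Tnc, tenascin C, was at 0.3 and 0.4 RPKM in caPI3Kalpha TAC and 6.3, 5.9 and 2.5 RPKM in WT TAC (-2.58, SE 0.41). The WT TAC hearts spread more for Spp1 and Tnc than for Postn, and no value of a caPI3Kalpha TAC heart reached the lowest of them.

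Of 15 collagens tested, 5 were lower and 0 higher (5.78% and 0.746% of all genes), with a median of -0.85 and with 10 below every WT TAC value (36.2% of all genes). Of the 15, 3 reached the level of entry to the table in WT TAC hearts only. Col5a2, a chain of the fibril-nucleating type V collagen, was at 5.6 and 6.4 RPKM in caPI3Kalpha TAC, against 23.7, 21.9 and 17.2 RPKM in WT TAC (-1.71, SE 0.18, adjusted p = 0.00138). Col3a1, a major fibril collagen, was at 39.1 and 46.3 RPKM in caPI3Kalpha TAC, against 259.0, 147.1 and 127.0 RPKM in WT TAC (-1.98, SE 0.29). Col8a1 (-1.43), Col14a1 (-1.78) and Col1a2 (-1.42) were the other 3 that fell. With the set term 11 of 15 collagens were lower. WT TAC 1 lay above WT TAC 17 and 19 for 14 of the 15, all but Col8a1. Col1a1 was at 22.6 and 28.3 RPKM in caPI3Kalpha TAC, against 147.4 RPKM in WT TAC 1 and 48.1 and 35.1 RPKM in WT TAC 17 and 19. Its groups did not overlap, its difference was -1.30 (adjusted p = 0.134), and with the set term it was -2.35 (adjusted p = 0.000225).

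Of 23 tested genes that cross-link or trim collagen, 5 were lower and 0 higher (5.78% and 0.746% of all genes), with a median of -0.41. Of the 23, 3 reached the level of entry to the table in WT TAC hearts only, Lox and Timp1 among them. Lox, lysyl oxidase, which cross-links collagen and elastin, was at 0.9 and 1.1 RPKM in caPI3Kalpha TAC, against 12.5, 6.6 and 5.9 RPKM in WT TAC (-2.49, SE 0.32). Timp1, an inhibitor of matrix metalloproteinases, was at 1.4 and 1.0 RPKM in caPI3Kalpha TAC and 20.5, 10.8 and 6.1 RPKM in WT TAC (-2.78, SE 0.50). Loxl2 (-1.02), Plod2, a collagen lysyl hydroxylase (-0.85), and Serpine2, a protease inhibitor (-1.43), were the other 3. Timp4, the inhibitor typical of heart muscle, was at 2.9 and 2.7 RPKM in caPI3Kalpha TAC and 3.1, 1.9 and 1.1 RPKM in WT TAC, with an adjusted p of 0.324. Against WT TAC 1 alone the list's median was -0.77 and against WT TAC 17 and 19 it was -0.23, with the median of all genes at -0.13 and -0.21.

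Of 22 genes of TGF-beta signalling, 3 were lower and 0 higher (5.78% and 0.746% of all genes). This pathway is best known for driving fibroblasts to make matrix. The list's median of -0.23 was near that of all genes. Tgfb2, a ligand, was at 4.2 and 5.2 RPKM in caPI3Kalpha TAC, against 8.2, 12.8 and 9.3 RPKM in WT TAC (-1.01, SE 0.21). The receptors Tgfbr2 (-0.73, SE 0.14) and Bmpr2 (-0.93, SE 0.24) were the other calls. After quantile normalization or centring Tgfbr2 alone was still called. The target genes Ctgf and Thbs1 did not pass the test. Ctgf was at 46.1 and 109.0 RPKM in caPI3Kalpha TAC and 137.9, 198.5 and 114.8 RPKM in WT TAC (adjusted p = 0.0789), and Thbs1 at 3.2 and 15.5 RPKM in caPI3Kalpha TAC and 16.1, 12.0 and 6.0 RPKM in WT TAC (adjusted p = 0.494). Both were lower in caPI3Kalpha TAC 11 than in 211.

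The calls of Postn, Col5a2, Col8a1 and Serpine2 held without any 1 of the 11 libraries. Those of Lox, Fn1, Sparc and Col14a1 were lost without caPI3Kalpha TAC 11 (highest adjusted p 0.0933), and those of Spp1, Col3a1 and Bgn without caPI3Kalpha TAC 11 or 211 (highest adjusted p 0.116). Timp1, Tnc and Loxl2 were lost without either of these or WT TAC 17 (highest adjusted p 0.14), and Tgfb2 and Tgfbr2 without either of these or WT TAC 17 or 19 (highest adjusted p 0.183). Bmpr2 was lost without any of these 4 or 3 of the WT sham libraries (highest adjusted p 0.272). Each of these differences kept its sign and stayed within 1.5-fold of the main value in those fits.

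**Figure D2:**
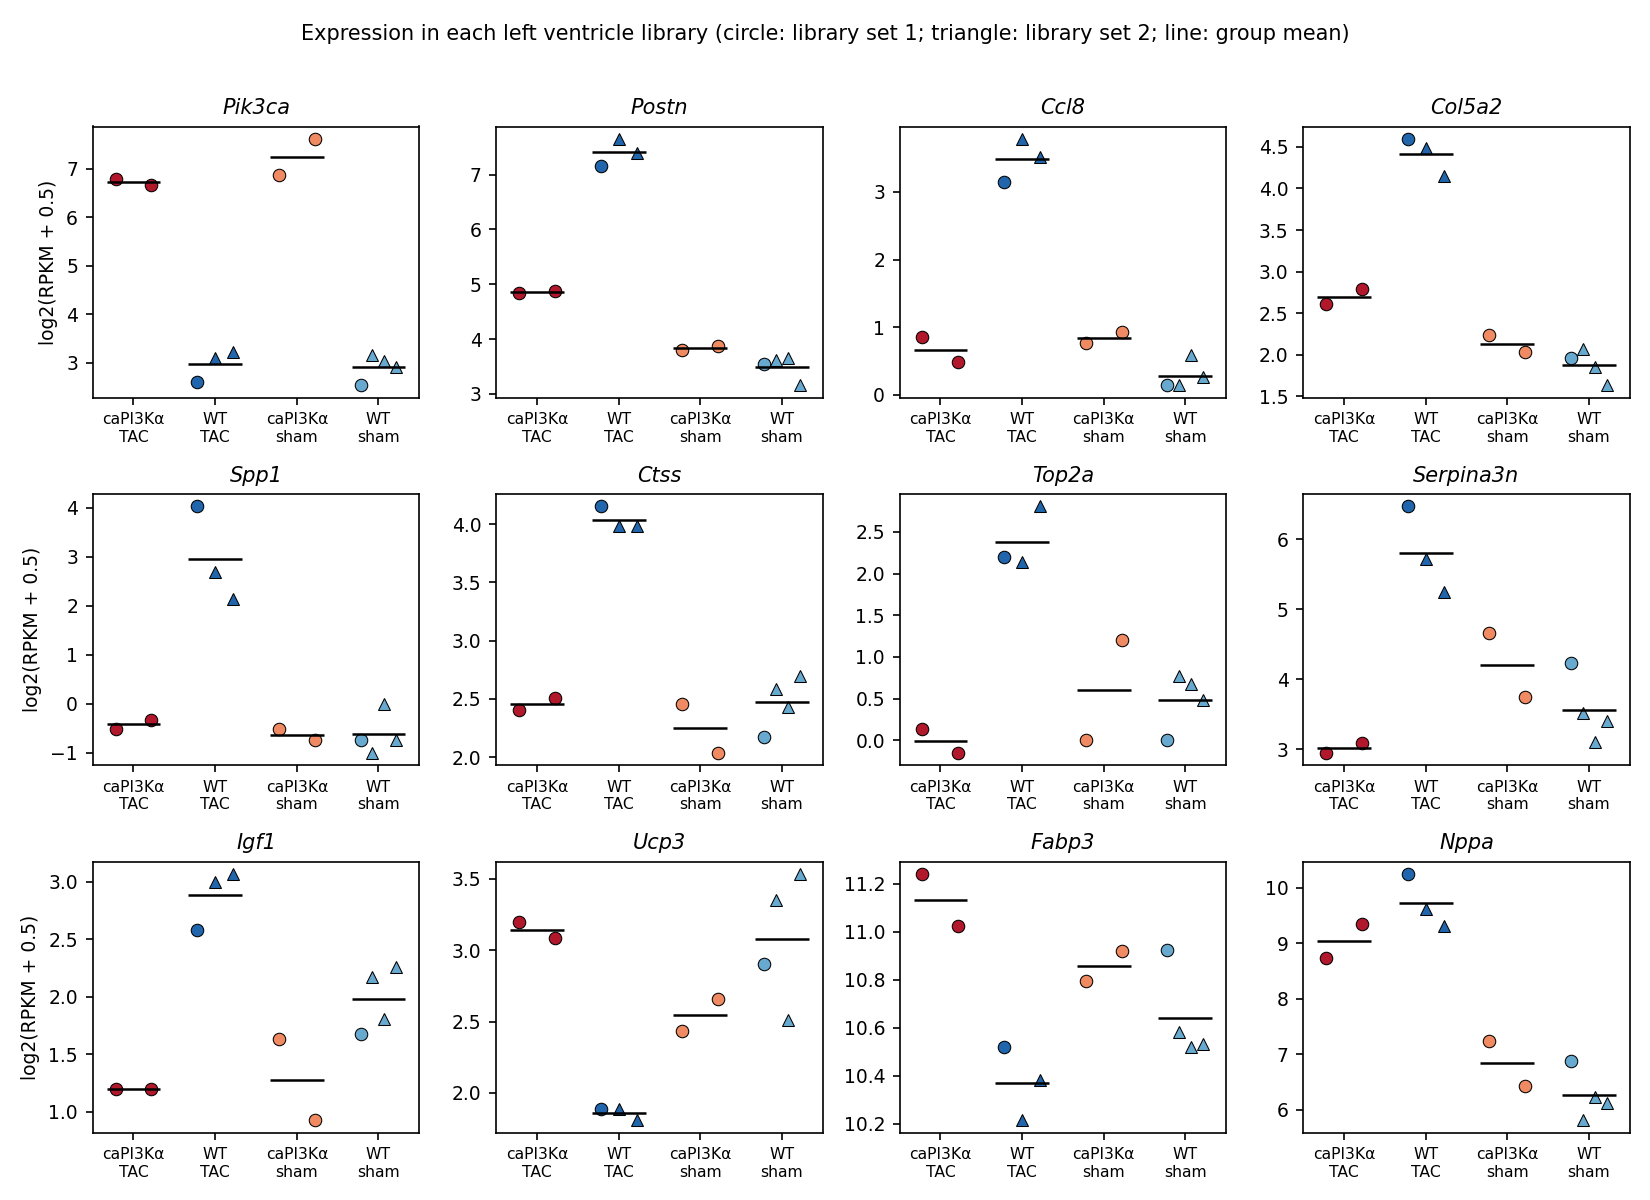
Each panel gives log2(RPKM + 0.5) of 1 gene in every library, with caPI3Kalpha TAC, WT TAC, caPI3Kalpha sham and WT sham from left to right, circles for library set 1, triangles for set 2 and a line at each group mean. Postn, Ccl8, Col5a2, Spp1 and Ctss of caPI3Kalpha TAC lie below all 3 WT TAC points, whichever set those belong to, and those of Ccl8, Spp1 and Ctss lie among the sham points. Nppa, the last panel, lies far above sham in both TAC groups, with overlapping values.

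Macrophage genes were lower as a group. Of 16 tested macrophage markers, 10 were lower and 0 higher (5.78% and 0.746% of all genes). Of the 16, 13 lay below every WT TAC value (36.2% of all genes did). For 2 of the 16 the level of entry to the table was reached in WT TAC hearts only. The median of the 16, -1.36, was the lowest of all lists. The markers summed to 139.7 and 166.7 RPKM in caPI3Kalpha TAC 11 and 211, against 383.1, 314.9 and 339.2 RPKM in WT TAC 1, 17 and 19. In the 6 sham hearts of both genotypes the sum lay between 125.8 and 196.4 RPKM, so the caPI3Kalpha TAC hearts were in the range of sham hearts. The 16 markers of other leukocytes, of T cells, B cells, natural killer cells, mast cells and neutrophils, were not analysed here.

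Ctss, the lysosomal protease cathepsin S, was at 4.8 and 5.2 RPKM in caPI3Kalpha TAC, against 17.3, 15.3 and 15.3 RPKM in WT TAC (-1.58, SE 0.18, adjusted p = 0.00175). Lyz2, lysozyme, was at 48.8 and 52.8 RPKM in caPI3Kalpha TAC and 133.1, 130.8 and 145.5 RPKM in WT TAC (-1.42, SE 0.20). Mpeg1, a pore-forming protein of phagocytes, was at 3.6 and 4.5 RPKM in caPI3Kalpha TAC and 12.4, 13.2 and 12.7 RPKM in WT TAC (-1.55, SE 0.24). The 3 WT TAC hearts were close to each other on these genes, WT TAC 1 included. Fcer1g, the signalling chain of Fc receptors, differed by -1.44 and Csf1r, the receptor for the growth factor that maintains macrophages, by -0.91 (SE 0.19).

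Of 13 tested genes linked to tissue-resident macrophages, 6 were lower and 0 higher (5.78% and 0.746% of all genes), with a median of -0.89. Of the 13, 2 reached the level of entry to the table in WT TAC hearts only, Ccl8 and Ms4a7, so the counts are a description. Ccl8, a chemokine that draws monocytes and is made by resident macrophages, was at 1.3 and 0.9 RPKM in caPI3Kalpha TAC, against 8.4, 13.3 and 11.0 RPKM in WT TAC. It was 7.07-fold lower (log2 -2.82, SE 0.24, adjusted p = 0.000296), and by -2.49 against WT TAC 1 alone. Mrc1, the mannose receptor, was at 3.3 and 3.9 RPKM in caPI3Kalpha TAC and 8.3, 12.9 and 11.2 RPKM in WT TAC (-1.45, SE 0.26). Ms4a7 (-2.15), Ccl6 (-1.02), F13a1, a coagulation factor subunit (-1.50), and Lyve1, a hyaluronan receptor (-0.89), were the other calls. After quantile normalization or centring 3 of the 13 were called. Retnla, a marker of alternatively activated macrophages in mice, was low in the TAC hearts, at 0.9 and 1.3 RPKM in caPI3Kalpha TAC and 0.7, 0.4 and 0.3 RPKM in WT TAC, against 3.1 and 1.2 RPKM in caPI3Kalpha sham and 1.6 to 5.6 RPKM in WT sham, and did not pass the test (adjusted p = 0.266).

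Of 10 tested monocyte and cytokine genes, 6 were lower and 0 higher (5.78% and 0.746% of all genes), with a median of -0.87. Of these 10, 4 reached the level of entry to the table in WT TAC hearts only, so the counts are a description. After quantile normalization or centring 3 of the 10 were called. Ccl2, the chemokine best known for recruiting monocytes, was at 1.0 and 1.4 RPKM in caPI3Kalpha TAC, against 4.5, 6.8 and 7.8 RPKM in WT TAC (-1.99, SE 0.43). Ccl12, its close relative in mice, was at 0.6 RPKM in both caPI3Kalpha TAC hearts and 2.7, 4.5 and 6.4 RPKM in WT TAC (-2.12, SE 0.46). Il33, an alarmin of stressed tissue, was at 1.3 RPKM in both caPI3Kalpha TAC hearts and 4.2, 4.5 and 4.3 RPKM in WT TAC (-1.43, SE 0.32). Osmr, the oncostatin M receptor, differed by -1.19 (SE 0.16), and Cxcl12 and Il6st by -0.69 and -0.52. These chemokines are at 1 or a few RPKM, where the pseudocount matters: with 0.1 in its place Ccl12 lost its call (adjusted p = 0.0799).

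The sequences just upstream of several of these genes are shown because they lie before genes that fell and hold the letters TATAAA, the core of the TATA box, shortly before the start. Each line gives the 100 bases before a RefSeq transcript start in GRCm38.p6, 5′ to 3′ on the plus strand, with the letters TATAAA in capitals. The neighbours Ccl8 and Ccl12 lie at chr11:82115085-82115184 and chr11:82101745-82101844, S100a4 at chr3:90603670-90603769 and the second listed start of Postn at chr3:54361007-54361106.
Ccl8: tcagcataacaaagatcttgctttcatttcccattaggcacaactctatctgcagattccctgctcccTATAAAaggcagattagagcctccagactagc
Ccl12: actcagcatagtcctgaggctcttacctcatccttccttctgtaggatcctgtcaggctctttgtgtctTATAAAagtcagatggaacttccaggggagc
S100a4: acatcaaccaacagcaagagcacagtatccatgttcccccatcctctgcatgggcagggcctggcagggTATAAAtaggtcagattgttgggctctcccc
Postn: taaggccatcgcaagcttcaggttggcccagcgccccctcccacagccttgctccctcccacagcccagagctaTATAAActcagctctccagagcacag
The motif begins 32, 31, 31 and 26 bases before the start in that order. These 4 were picked for holding it. Over 300-base windows (250 bases before to 50 after each start), with TATAAA searched on both strands, 43 of 373 genes called lower with a window held it (11.5%), 3 of 53 genes called higher (5.66%), and 577 of 6445 genes tested (8.95%). Of all 32851 RefSeq windows 13.6% held it. That last share is over windows, and the others are over genes, which can have several windows. The others of the 8987 genes had no window under their symbol.

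Of 13 tested complement genes, 6 were lower and 0 higher (5.78% and 0.746% of all genes), with a median of -0.86. Below every WT TAC value lay 11 of them (36.2% of all genes did). Of the 13, 4 reached the level of entry to the table in WT TAC hearts only, so the counts are a description. C3, the central component, was at 6.7 and 6.3 RPKM in caPI3Kalpha TAC, against 41.0, 17.8 and 14.3 RPKM in WT TAC (-1.68, SE 0.40). C4b (-1.51), the anaphylatoxin receptors C3ar1 (-1.68) and C5ar1 (-1.29) and the regulator Serping1 (-0.86) were also lower. After median centring or quantile normalization 1 of the 13 was called. Antigen presentation genes did not follow the macrophage genes: 0 of 13 were called in either direction, and their median was -0.02. H2-Aa, a class II chain, was at 21.2 and 24.2 RPKM in caPI3Kalpha TAC and 31.1, 23.1 and 28.7 RPKM in WT TAC. B2m, the class I light chain, was at 124.8 and 89.8 RPKM in caPI3Kalpha TAC and 118.2, 141.0 and 229.5 RPKM in WT TAC. A p that misses the threshold does not show that these levels are alike.

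Among the immune genes, the calls of Ccl8 and Ctss held without any 1 of the 11 libraries. Those of Lyz2, Mpeg1 and Osmr were lost without caPI3Kalpha TAC 11 or 211 and that of Fcer1g without 211 (highest adjusted p 0.124). That of C3ar1 was lost without either of these or WT TAC 17 (highest adjusted p 0.131). Those of Mrc1, Ms4a7, Ccl6, Ccl2, Ccl12, Il33 and Csf1r were lost without either of these or WT TAC 17 or 19 (highest adjusted p 0.193), and those of C3, C4b, C5ar1 and Lyve1 also without some of the sham libraries (highest adjusted p 0.248). Reads of near-identical copies, such as Lyz1 and Lyz2, may be split between them.

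Acute phase and serpin genes stood among the 10 largest falls. Serpina3n, a secreted inhibitor of serine proteases that rises in inflamed tissue, was at 7.2 and 8.0 RPKM in caPI3Kalpha TAC, against 88.2, 52.0 and 37.4 RPKM in WT TAC (-2.79, SE 0.39). In sham hearts it was at 24.9 and 12.9 RPKM in caPI3Kalpha and between 8.1 and 18.2 RPKM in WT, so the caPI3Kalpha TAC hearts were the lowest of all 11. Its neighbour in the gene cluster, Serpina3m, was at 0.3 RPKM in both caPI3Kalpha TAC hearts and 5.4, 4.0 and 2.7 RPKM in WT TAC (-2.46, SE 0.32). Reads may be shared among the near-identical Serpina3 copies, so their separate values are uncertain. Hp, haptoglobin, was at 0.1 and 0.3 RPKM in caPI3Kalpha TAC and 8.3, 3.4 and 2.2 RPKM in WT TAC (-2.71, SE 0.72, adjusted p = 0.0494), and was not called with a pseudocount of 0.1 (adjusted p = 0.0682). S100a4, a calcium-binding protein of fibroblasts and leukocytes, was at 2.2 and 2.3 RPKM in caPI3Kalpha TAC and 14.2, 18.4 and 13.7 RPKM in WT TAC (-2.52, SE 0.27, adjusted p = 0.00138).

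The call of S100a4 held without any 1 library. Those of Serpina3n and Serpina3m were lost without caPI3Kalpha TAC 11 or 211 (highest adjusted p 0.0933), and that of Hp also without WT TAC 17 or 19 and 3 WT sham libraries (highest adjusted p 0.224).

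Cell cycle genes were low in caPI3Kalpha TAC where they could be measured. Of 22 in the list 10 were tested, of which 9 were lower and 0 higher (5.78% and 0.746% of all genes), with a median of -1.12. For 7 of the 10 the level that admits a gene to the table was reached in WT TAC hearts only, so these counts are a description and not support. Top2a, a topoisomerase of dividing cells, was at 0.6 and 0.4 RPKM in caPI3Kalpha TAC, against 4.1, 3.9 and 6.5 RPKM in WT TAC (-2.39, SE 0.38). Mki67, the Ki-67 antigen, was at 0.8 and 0.6 RPKM in caPI3Kalpha TAC and 5.3, 3.5 and 6.5 RPKM in WT TAC (-2.19, SE 0.40). The helicase subunits Mcm5 and Mcm6 differed by -1.51 and -1.55. The 10 genes summed to 36.4 and 41.6 RPKM in caPI3Kalpha TAC, against 81.5, 82.7 and 94.1 RPKM in WT TAC and 35.4 to 49.4 RPKM in the 6 sham hearts. Macrophage and fibroblast marker sums moved in the same direction in the same hearts, and their part in these values was not tested. After median centring 5 of the 10 were called, and leaving out caPI3Kalpha TAC 11 or 211 ended those of Top2a, Mki67, Mcm5 and Mcm6, as did WT TAC 19 for Mki67 and WT TAC 17 or 19 for Mcm5 (highest adjusted p 0.143).

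Of 13 tested fibroblast markers, 4 were lower and 1 was higher (5.78% and 0.746% of all genes), with a median of -0.71. Vim, the intermediate filament vimentin, was at 85.5 and 96.0 RPKM in caPI3Kalpha TAC, against 221.9, 187.3 and 203.1 RPKM in WT TAC (-1.16, SE 0.13, adjusted p = 0.00175). Lum, lumican, was at 52.7 and 52.3 RPKM in caPI3Kalpha TAC and 90.1, 140.7 and 140.1 RPKM in WT TAC (-1.20, SE 0.23). Acta2, smooth muscle actin, also made by activated fibroblasts, was at 14.9 and 19.0 RPKM in caPI3Kalpha TAC and 66.5, 41.5 and 30.5 RPKM in WT TAC (-1.36, SE 0.34). In sham hearts it was at 58.3 and 27.7 RPKM in caPI3Kalpha and 38.1 to 50.3 RPKM in WT. WT TAC thus overlapped sham for Acta2, and caPI3Kalpha TAC lay below every sham heart. Mfap4, a microfibril protein, differed by -1.34. Gsn, gelsolin, which severs actin filaments in many cells, was the exception, at 297.0 and 305.8 RPKM in caPI3Kalpha TAC, against 234.1, 154.7 and 128.2 RPKM in WT TAC (0.85, SE 0.21). The fibroblast markers summed to 757.0 and 805.5 RPKM in caPI3Kalpha TAC, 1004.2 to 1159.4 RPKM in WT TAC and 649.0 to 766.4 RPKM in sham hearts.

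Vessel markers differed less. Of 15 endothelial markers, 1 was higher and 1 lower (0.746% and 5.78% of all genes), with a median of -0.15. Aqp1, a water channel of capillaries, was at 70.1 and 83.2 RPKM in caPI3Kalpha TAC and 46.3, 38.7 and 37.6 RPKM in WT TAC (0.90, SE 0.18). Pecam1, the junction protein CD31, was at 35.2 and 34.9 RPKM in caPI3Kalpha TAC and 45.2, 49.5 and 49.7 RPKM in WT TAC (-0.45, SE 0.12). Of 11 smooth muscle and pericyte markers, 1 was lower, Acta2, and their median was -0.27. Vim kept its call without any 1 library. Leaving out caPI3Kalpha TAC 11 or 211 ended the calls of Lum, Mfap4, Acta2, Aqp1 and Pecam1 (highest adjusted p 0.236). WT TAC 17 did so for all 5 too, WT TAC 19 for all but Mfap4, and some sham libraries for Acta2 and Pecam1.

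Genes of fatty acid use were the list with the most rises. Of 33 tested genes of fatty acid uptake and oxidation, 10 were higher and 0 lower (0.746% and 5.78% of all genes), and 20 lay above every WT TAC value (11.5% of all genes did). Their median was 0.36. The list summed to 6494.3 and 5991.8 RPKM in caPI3Kalpha TAC, against 4671.3, 5088.8 and 5434.4 RPKM in WT TAC and 6138.4 to 7245.5 RPKM in sham hearts. With the set term 17 were higher, after median centring 12 and after quantile normalization 8.

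Fabp3, the fatty acid binding protein of heart muscle, was at 2420.8 and 2084.6 RPKM in caPI3Kalpha TAC, against 1465.6, 1186.5 and 1333.5 RPKM in WT TAC (0.76, SE 0.14, adjusted p = 0.0187). Ucp3, an uncoupling protein of the inner mitochondrial membrane, was at 8.7 and 8.0 RPKM in caPI3Kalpha TAC and 3.2, 3.2 and 3.0 RPKM in WT TAC (1.28, SE 0.25). The difference in Ucp3 was the same size against WT TAC 1 alone (1.26). Pdk4, the kinase that turns off pyruvate dehydrogenase and so spares glucose, was at 94.6 and 156.5 RPKM in caPI3Kalpha TAC and 53.5, 49.9 and 51.4 RPKM in WT TAC (1.23, SE 0.32). Mlycd, which degrades the malonyl-CoA that inhibits fatty acid entry, differed by 0.97 (SE 0.21), Acot2, a mitochondrial acyl-CoA thioesterase, by 0.98 (SE 0.21) and Acaa2, a thiolase of beta-oxidation, by 0.51 (SE 0.12). Hadha, a subunit of the trifunctional protein, was at 174.1 and 175.1 RPKM in caPI3Kalpha TAC and 133.2, 140.2 and 151.5 RPKM in WT TAC, and missed the threshold (adjusted p = 0.0884). With the set term its difference was 0.37 and passed it (adjusted p = 0.0205).

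Regulators and the rest of energy metabolism showed few calls. Of 16 metabolic regulators 0 were called (6.52% of all genes were). Ppargc1a, the coactivator of mitochondrial genes, was at 9.7 and 9.6 RPKM in caPI3Kalpha TAC and 14.9, 13.5 and 14.1 RPKM in WT TAC (-0.53, adjusted p = 0.0597). Of 41 respiratory chain and ATP synthase genes 0 were called, with a median of 0.14. Of the 41, 22 lay above every WT TAC value (11.5% of all genes did). Of 19 citric acid cycle genes 0 were called. Of 21 genes of branched-chain amino acid breakdown 1 was higher, and of 28 genes of glucose uptake and glycolysis 2 (0.746% of all genes). Those 3 were Bckdha, a dehydrogenase subunit (1.11, SE 0.24), Pfkm, muscle phosphofructokinase (0.57, SE 0.14), and Eno3, muscle enolase (0.42, SE 0.10).

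The largest other rises came from several functions. Enho, which encodes the secreted peptide adropin, was at 7.9 and 8.2 RPKM in caPI3Kalpha TAC, against 3.4, 1.1 and 1.9 RPKM in WT TAC (1.79, SE 0.34). Thrsp, known for its part in fat synthesis, was at 36.4 and 21.4 RPKM in caPI3Kalpha TAC and 11.2, 7.8 and 7.2 RPKM in WT TAC (1.65, SE 0.43). Slc25a34, of the mitochondrial carrier family, was at 31.6 and 31.9 RPKM in caPI3Kalpha TAC and 17.9, 9.5 and 10.7 RPKM in WT TAC (1.34, SE 0.27). For these 3 genes the WT TAC heart nearest to caPI3Kalpha TAC was WT TAC 1. Efnb3, the membrane ligand ephrin B3, differed by 1.26, Rasd1, a small G protein, by 1.66, and 1190002H23Rik by 1.24. Zfp36, which promotes decay of cytokine transcripts, was at 12.4 and 18.9 RPKM in caPI3Kalpha TAC and 9.4, 5.2 and 4.7 RPKM in WT TAC (1.25, SE 0.31). WT TAC 1 was also the nearest WT TAC heart for Efnb3, Rasd1, 1190002H23Rik and Zfp36, and by a small margin for Pdk4. For Ucp3 it tied with WT TAC 17. Of 13 immediate early genes Zfp36 and Dusp1, a phosphatase of MAP kinases, were higher and 0 were lower (0.746% and 5.78% of all genes). The list's median was 0.60 in the main fit, 0.14 against WT TAC 1 alone and 0.84 against WT TAC 17 and 19.

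None of these rises other than Pik3ca kept its call without every 1 of the 11 libraries. Leaving out WT TAC 17, WT TAC 19 or caPI3Kalpha TAC 211 ended the call of each of the other 9 largest rises, and leaving out caPI3Kalpha TAC 11 that of 8 of them, with the highest adjusted p between 0.14 and 0.295. Fabp3, Acot2, Mlycd and Bckdha were lost under the same 4 omissions, and Bckdha also without WT sham 15 (highest adjusted p 0.213). Acaa2, Pfkm, Eno3 and Dusp1 were lost without each of these 4 and 5 of the 6 sham libraries (highest adjusted p 0.249), Pdk4 and Zfp36 likewise, and Thrsp also without 3 of the WT sham libraries. Their differences kept sign and stayed within 1.5-fold of the main values.

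Cardiomyocyte stress genes mostly did not pass the test. Of 20 hypertrophy and fetal genes, 3 were lower and 0 higher (5.78% and 0.746% of all genes), and their median was -0.08. Nppa, atrial natriuretic peptide, was at 426.3 and 650.9 RPKM in caPI3Kalpha TAC, against 1219.1, 788.6 and 631.2 RPKM in WT TAC, and the groups overlapped (-0.68, SE 0.36, adjusted p = 0.2). With the set term the difference was -1.22 (adjusted p = 0.0201). Nppb, B-type natriuretic peptide, was at 236.5 and 404.4 RPKM in caPI3Kalpha TAC and 390.4, 402.5 and 359.5 RPKM in WT TAC. Acta1, skeletal actin, was at 1567.3 and 1806.4 RPKM in caPI3Kalpha TAC and 1202.7, 1046.4 and 1063.5 RPKM in WT TAC, with an adjusted p of 0.523. Its difference of 0.61 became -0.37 with the set term, so no direction is given. Ankrd1, a stress-responsive titin-binding protein, and Myh7, the slow myosin heavy chain, had adjusted p of 0.35 and 0.205.

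The 3 hypertrophy genes that fell were Fhl1, Xirp2 and Actn1. Fhl1, a LIM protein that binds titin, was at 100.9 and 94.2 RPKM in caPI3Kalpha TAC, against 218.4, 370.7 and 336.7 RPKM in WT TAC (-1.62, SE 0.28). Xirp2, an actin-binding protein of the intercalated disc, was at 174.5 and 172.1 RPKM in caPI3Kalpha TAC and 231.6, 393.0 and 331.6 RPKM in WT TAC (-0.84, SE 0.19), and Actn1, alpha-actinin 1, differed by -0.65 (SE 0.15). For Fhl1 and Xirp2 the WT TAC heart nearest to caPI3Kalpha TAC was again WT TAC 1. Of 21 genes of adult contraction and calcium handling 2 were higher and 3 lower (0.746% and 5.78% of all genes). Higher were Hrc, a calcium-binding protein of the sarcoplasmic reticulum (0.46, SE 0.10), and Mybpc3, a thick filament protein (0.61, SE 0.16). Ttn, titin, Ryr2, the calcium release channel, and Slc8a1, the sodium-calcium exchanger, were lower by -0.61, -0.59 and -0.79. Myh6, the main myosin heavy chain of the adult mouse heart, and Atp2a2, the calcium pump, did not pass the test (adjusted p = 0.161 and 0.0884). Of 21 ion channel and junction genes 1 was lower, Gja1, connexin 43 (-0.95, SE 0.20). Fhl1 and Gja1 lost their calls without caPI3Kalpha TAC 11 or 211 or WT TAC 17 or 19, and Xirp2, Actn1, Ttn, Ryr2, Slc8a1 and Hrc also without some sham libraries (highest adjusted p 0.261).

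The other lists held few calls, where 0.746% of all genes were higher and 5.78% lower. Of 16 genes of endoplasmic reticulum folding 2 were lower, Pdia3 (-0.89) and Pdia4 (-0.65), and 11 lay below every WT TAC value (36.2% of all genes). Of 22 of oxidative stress and heat shock 1 was lower, Txnrd1 (-0.66). Of 49 cytosolic ribosomal protein genes 1 was lower, Rpl3 (-1.03). None was called among 30 mitochondrial ribosomal protein genes, 29 proteasome genes or 14 clock genes, although 12 of the 30 mitochondrial ones lay above every WT TAC value (11.5% of all genes).

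**Figure D3:**
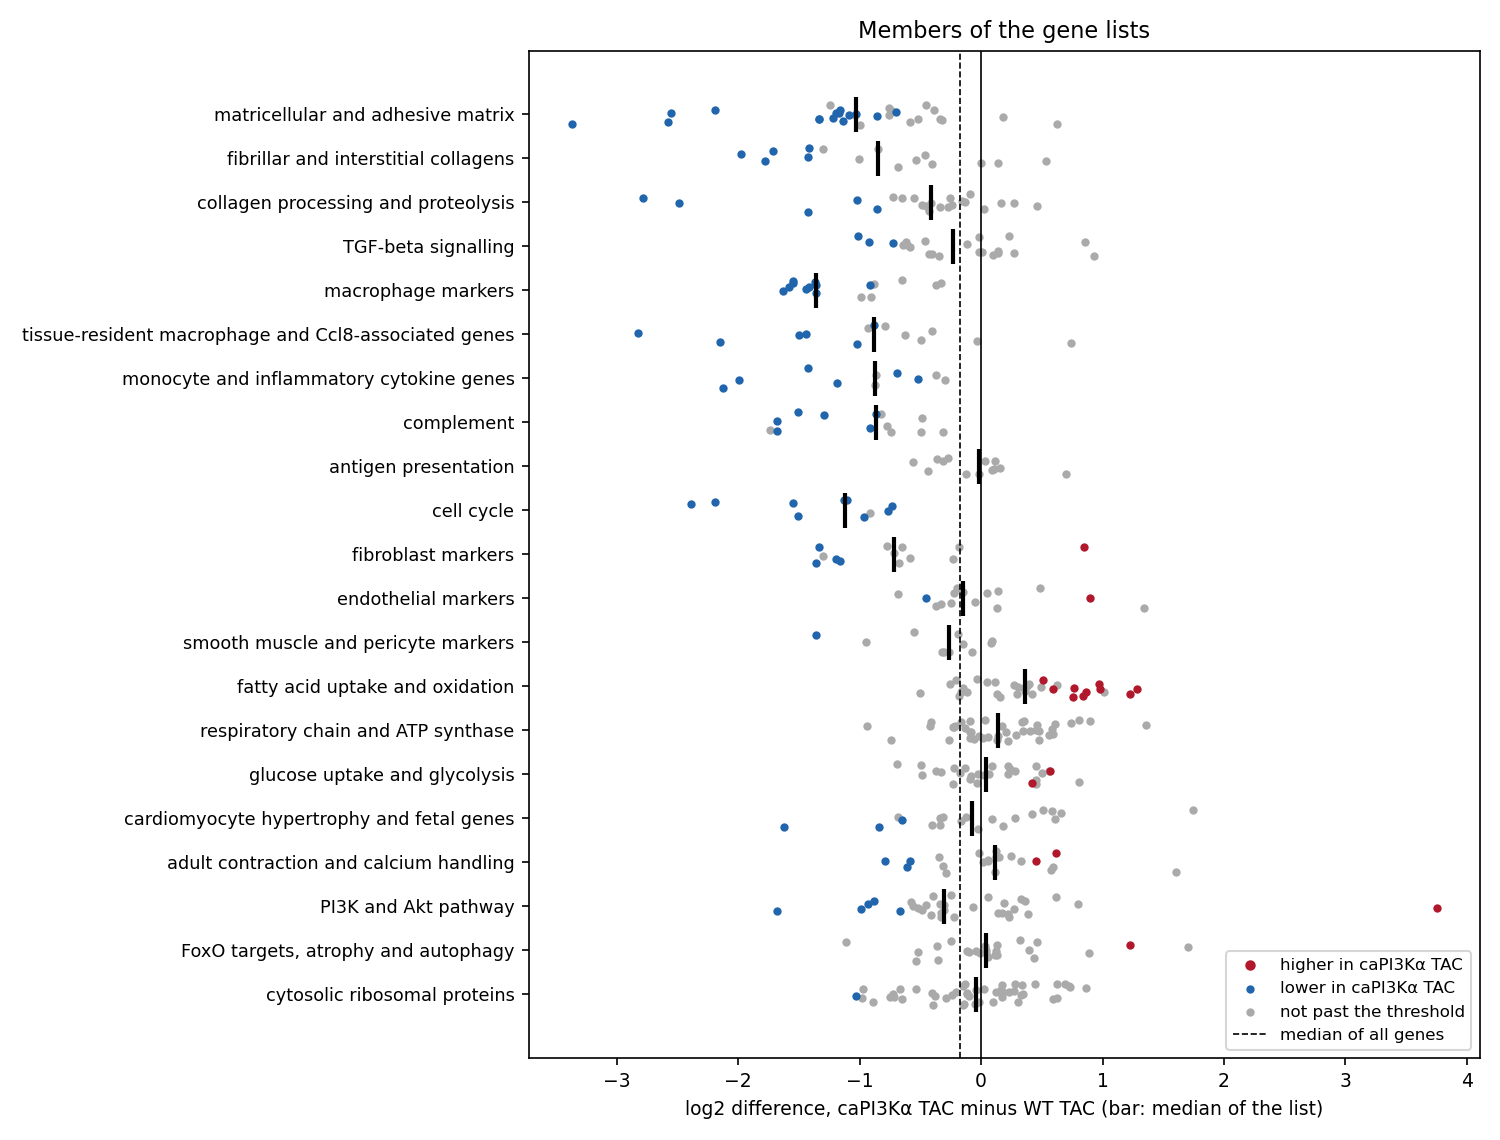
Each point is a member of a gene list, placed by its log2 difference, caPI3Kalpha TAC minus WT TAC, with red for genes called higher, blue for genes called lower, grey for the rest, a bar at each list's median and a dashed line at the median of all genes, -0.18. The macrophage, cell cycle and matricellular medians lie at -1.36, -1.12 and -1.03, and the fatty acid median lies at 0.36.

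The sham hearts give a scale for these levels. Of the 519 genes called lower, both caPI3Kalpha TAC values lay within the range of the 6 sham values for 216 (41.6%), above it for 41, below it for 118 (22.7%) and partly outside it for 144. Of all genes, 50.4% lay within it and 9.65% below it. The 3 WT TAC values of the same genes lay wholly above the sham range for 377 (72.6%), against 16.2% of all genes. Postn was among the 41: its caPI3Kalpha TAC values of 28.0 and 28.8 RPKM exceeded the sham range of 8.4 to 14.2 RPKM. Of the 67 genes called higher, the caPI3Kalpha TAC values lay within the sham range for 23 and above it for 23, and the WT TAC values lay below it for 37 (55.2%, against 3.54% of all genes). These shares rest on the same WT TAC values that made the calls and are a description.

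**Figure D4:**
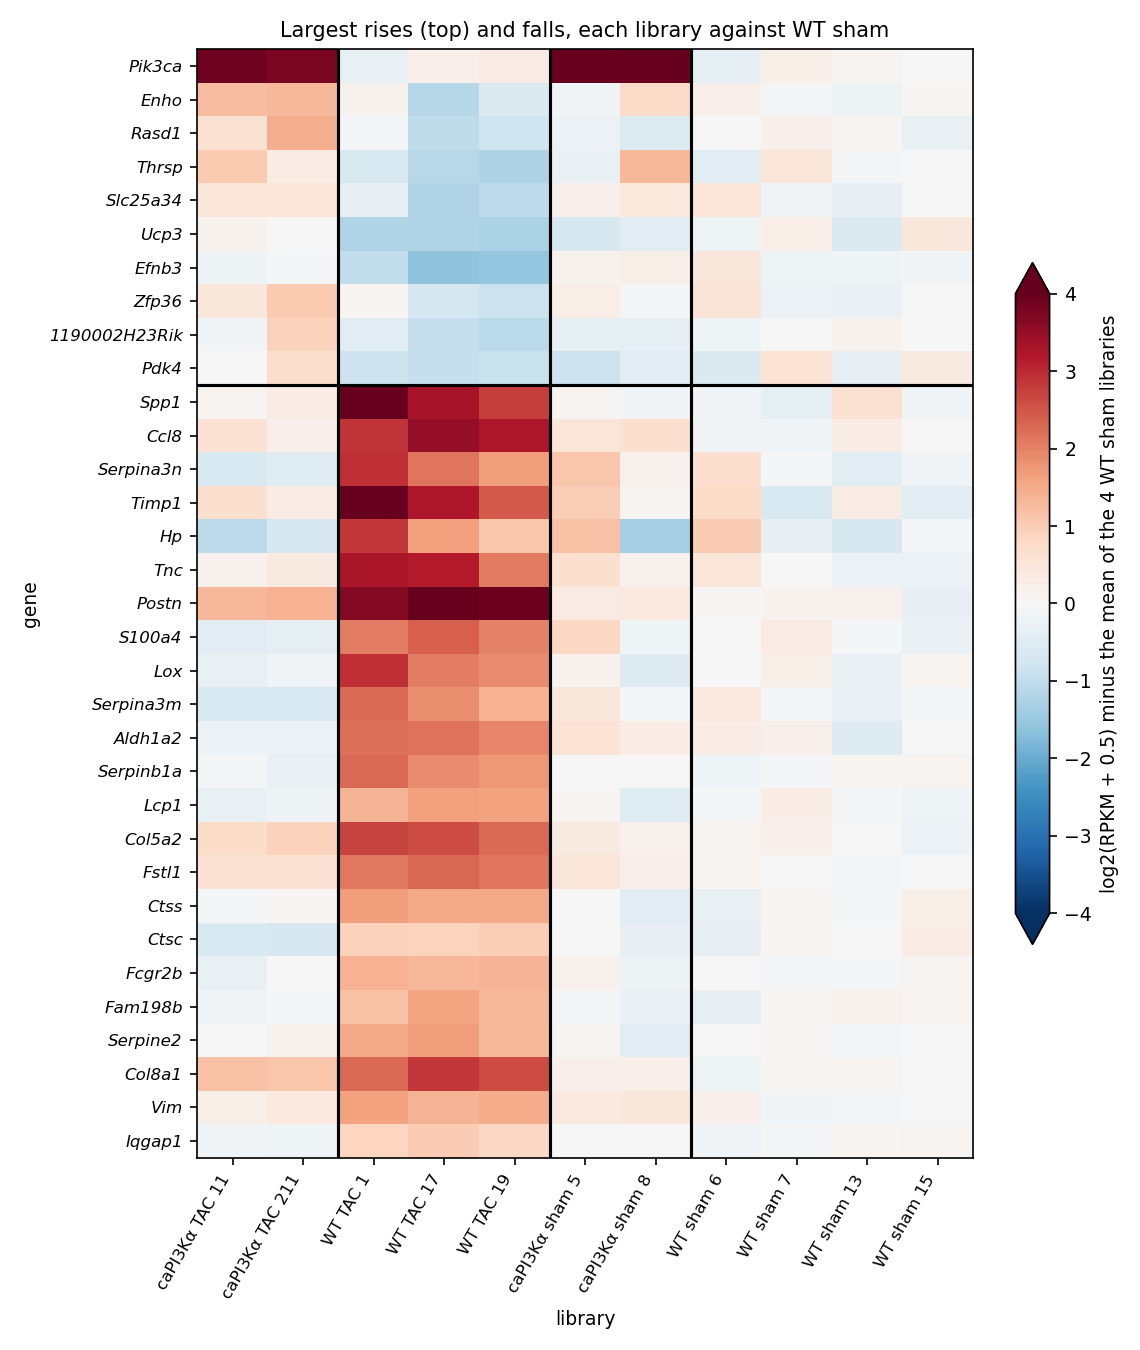
Rows are the 10 largest called rises (top), then the 10 largest called falls and the genes called lower without each library in turn, ordered by difference, and columns are the 11 libraries with the TAC groups at the left. Colour is log2(RPKM + 0.5) minus the mean of the 4 WT sham libraries, with colours ending at -4 and 4. The falls are red in all 3 WT TAC columns and paler or blue in the caPI3Kalpha TAC columns, while most rises other than Pik3ca are blue in WT TAC 17 and 19.

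A test of whether the genotype difference after TAC was unlike that after sham called 28 genes of 8987 (0.312%), all with a more negative difference after TAC, and all 28 were also called lower in the TAC comparison. The count was 607 with the set term, 0 in 1 set alone (1110 at an unadjusted p under 0.05), 12 after centring and 18 after quantile normalization. For Postn the interaction was -2.90 (SE 0.25, adjusted p = 0.00105) and for Ccl8 -3.39 (SE 0.33, adjusted p = 0.00161). Fstl1, a secreted glycoprotein of mesenchymal cells, was at 28.9 and 28.7 RPKM in caPI3Kalpha TAC, against 84.6, 96.9 and 86.3 RPKM in WT TAC, and at 26.9 and 22.0 RPKM in caPI3Kalpha sham, against 18.3 to 20.1 RPKM in WT sham (interaction -1.95, SE 0.17). Of the 28, matrix genes included Col5a2, Col3a1, Col8a1, Col14a1, Fn1, Sparc, Bgn, Vcan, Mfap5, Sulf1 and Loxl2, and genes of leukocytes included Fcgr2b, Lcp1 and Ctsc. No gene of fatty acid oxidation was among them. The count was 3 without caPI3Kalpha TAC 11, 4 without caPI3Kalpha TAC 211 or WT TAC 17, 5 without caPI3Kalpha sham 5, 12 without caPI3Kalpha sham 8, 13, 17 and 15 without WT sham 7, 13 and 15, and 66 without WT sham 6. The TAC and interaction comparisons share the TAC hearts, so the overlap of their calls is not independent.

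Of the 586 calls, 17 held when each of the 11 libraries was left out in turn: Pik3ca, higher, and 16 lower. Every other called gene named here lost its call in at least 1 of these fits. The 17 were picked after their values were seen. The 16 that were lower were Postn, Fstl1, Ccl8, Fcgr2b, Col5a2, Serpinb1a, Lcp1, S100a4, Serpine2, Ctss, Ctsc, Vim, Aldh1a2, Col8a1, Iqgap1 and Fam198b. Fcgr2b, the inhibitory Fc receptor, was at 2.3 and 2.9 RPKM in caPI3Kalpha TAC, against 8.6, 8.2 and 8.4 RPKM in WT TAC (-1.53, SE 0.15). Lcp1, an actin-bundling protein of leukocytes, was at 4.0 and 4.4 RPKM in caPI3Kalpha TAC and 13.9, 17.0 and 16.4 RPKM in WT TAC (-1.79, SE 0.19). Aldh1a2, an enzyme that makes retinoic acid, was at 0.6 RPKM in both caPI3Kalpha TAC hearts and 5.4, 5.3 and 4.5 RPKM in WT TAC (-2.33, SE 0.27). For these genes the 3 WT TAC hearts are close to each other across the library sets.

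The place of WT TAC 1 differed from gene to gene. All 67 genes called higher were above it and all 519 called lower were below it when the mean of caPI3Kalpha TAC was set against this heart alone, which follows from the groups of all 586 not overlapping. Over all genes the log2 differences had an SD of 0.358 from WT TAC 1 alone and of 0.633 from WT TAC 17 and 19. Without WT TAC 1, 745 genes were called higher and 2524 lower, all 586 among them, and there the library set and the genotype cannot be told apart. With the set term 113 were higher and 696 lower, and 482 of the 586 calls remained. Of the genes called above, Thrsp, Dusp1, Lyve1 and Il33 were then not called (adjusted p = 0.0556, 0.0819, 0.0749 and 0.0514). Against WT TAC 1 alone, 12 of the called genes named here differed from the main value by over 1.5-fold. Those further below were Spp1 (-4.45), Hp (-3.67), Timp1 (-3.64), Serpina3n (-3.46), Lox (-3.12), Fn1 (-2.89), Col3a1 (-2.59), C3 (-2.57), Col1a2 (-2.01) and Acta2 (-1.95). F13a1 (-0.80) and Enho (1.13) differed less from that heart. Within set 1, where WT TAC is a single heart assumed to vary like the other groups, 0 genes were higher and 1 lower, Postn, with 1760 at an unadjusted p under 0.05.

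Genes that follow the sets had large differences without being called. Map3k15, a protein kinase gene, was at 49.9 and 44.9 RPKM in caPI3Kalpha TAC and 49.3 RPKM in WT TAC 1, against 0.2 RPKM in both WT TAC 17 and 19, and its difference of 4.04 exceeded that of Pik3ca (adjusted p = 0.18). Tpt1, an abundant growth-related protein, was at 400.1 and 383.8 RPKM in caPI3Kalpha TAC and 422.8, 52.4 and 50.7 RPKM in WT TAC 1, 17 and 19. With the set term their differences were -0.01 and -0.13. These genes were picked after their values were seen.

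**Figure D5:**
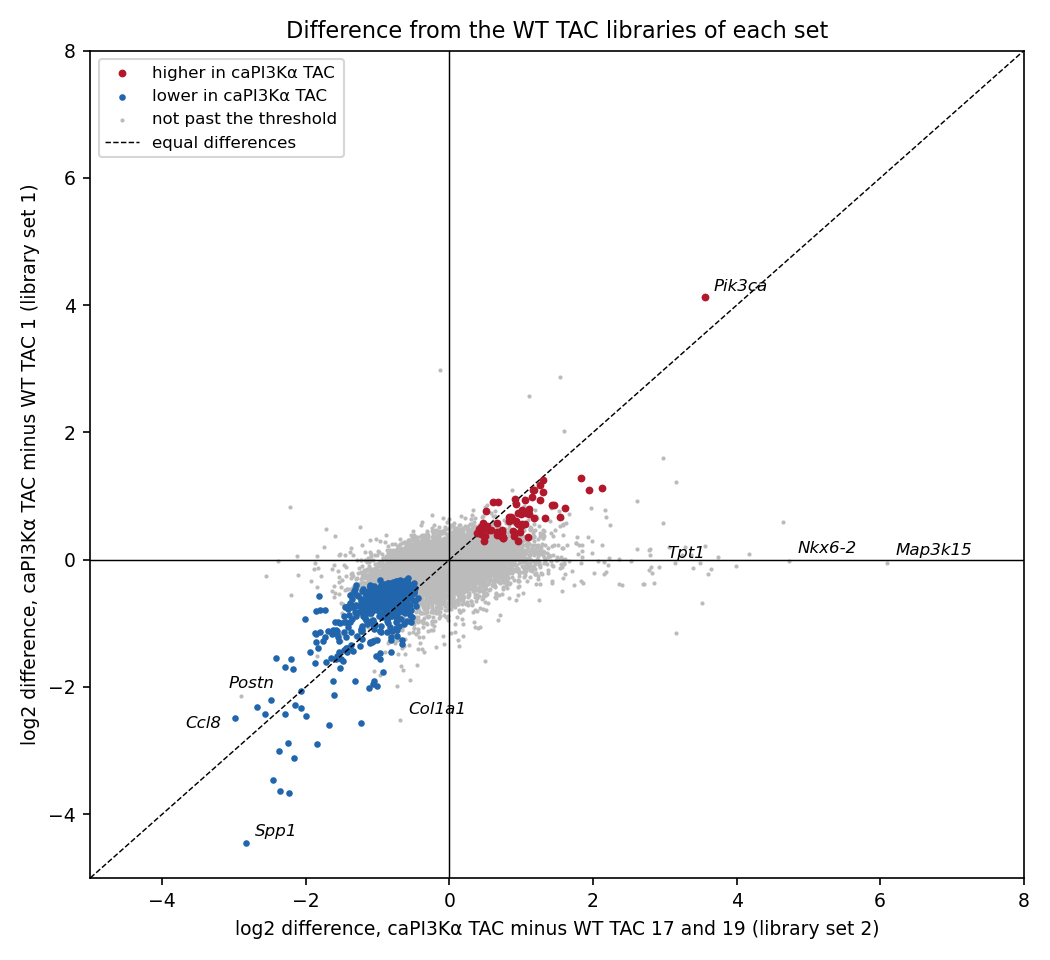
Each point is a gene, placed by its log2 difference between caPI3Kalpha TAC and the WT TAC libraries of set 2 (17 and 19, horizontal) and of set 1 (WT TAC 1, vertical), with red for genes called higher, blue for genes called lower and a dashed line where both are equal. Called genes lie in the lower left and upper right, so both differences have the same sign, while Map3k15, Nkx6-2 and Tpt1 lie far to the right at a vertical value near 0.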

How the data were processed

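Poly-A RNA of mouse left ventricle was sequenced as single-end reads on an Illumina HiSeq, per the labels' protocols. The deposited RPKM values were computed by the authors from CASAVA 1.6, Bowtie and Partek 6.5 output on mm9, tools and build named in the submitters' processing notes without role or order. RPKM divides by library total and gene length, so a few very abundant genes shift all others. The deposited miRNA table was not used. Of 9251 lines, 261 had no symbol, 1 held a spreadsheet error and 2 repeated a symbol, which left 8987 genes. Samples were grouped by genotype and operation from their titles. Differences came from limma 3.58.1 (R 4.3.3) on log2(RPKM + 0.5), a 4-group model of all 11 libraries with a trended prior, two-sided, with Benjamini-Hochberg adjustment over all genes. Library depth is unknown, so no counting interval can be given. The method was tested on simulated data with independent noise and no library set effect, so that test does not bear on the split into sets. Genes named are the 10 largest rises and 10 largest falls without overlap between groups, the 4 or fewer genes of smallest p in each of 34 lists, and a fixed set of markers. The cardiomyocyte identity markers, Myl7, Igf2, Col1a2, Plod2, F13a1, Cxcl12, Il6st, Serping1, Gsn, Mybpc3, the antigen presentation pair, the interaction and leave-one-out genes and the set-following genes were named beyond it, after their values were seen. The members and lists were chosen with earlier results of these data known. Alternatives were the pseudocount, filter, scaling, prior, samples in the fit, a library set term, 1 library set alone and each library left out. Promoter sequences are from RefSeq. Some genes are not reported here.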

Additional observations from a re-analysis of the deposited data

Results flagged for a closer look

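For 28 genes the caPI3Kalpha minus WT difference was more negative after TAC than after sham, by the interaction term of the same limma model. Among matrix genes the interaction was -2.905 on the log2 scale for Postn (adjusted p = 0.00105), -2.306 for Col3a1, -1.967 for Col5a2, -1.631 for Col8a1 and -2.048 for Col14a1. It was -2.445 for Fn1, -1.228 for Sparc, -1.409 for Bgn, -1.488 for Vcan, -1.522 for Mfap5, -1.04 for Sulf1 and -1.633 for Loxl2. It was -1.947 for Fstl1 (adjusted p = 0.00105), -1.277 for Serpine2, -1.587 for Vim and -2.765 for Aldh1a2. Among leukocyte and inflammation genes it was -3.386 for Ccl8 (adjusted p = 0.00161), -1.517 for Fcgr2b, -1.586 for Lcp1, -1.399 for Ctsc, -2.182 for Serpinb1a, -2.859 for S100a4, -3.437 for Serpina3n and -2.671 for Serpina3m. The other values were -1.025 for Iqgap1, -1.143 for Anxa2, -1.048 for Scd2 and -1.016 for Dynll1. Adjusted p over the 28 genes reached at most 0.0455.

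For 4 named genes 1 of the 4 WT sham libraries lay apart from the others. That library was WT sham 6 each time, the only WT sham library of set 1. It had 23.7 RPKM of Efnb3, with the others between 15.2 and 15.9 RPKM, and 455.2 RPKM of Acta1, with the others between 47.4 and 93.7 RPKM. It had 35.0 RPKM of Akt1, with the others between 21.9 and 22.4 RPKM, and 5.2 RPKM of Foxo1, with the others between 6.6 and 6.8 RPKM. The WT sham values of 46 named genes were examined in this way, and chance alone gives such a gap in about 5% of groups.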

How the results depend on the processing

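No paired analysis was possible because the animal numbers of caPI3Kalpha TAC and WT TAC have none in common. Of 107 called genes named, none changed sign under any alternative. Of the 85 of them called lower, 27 lost the call by quantile normalization and 31 by centring. Of the 22 called higher, 8 and 1 did. The counts moved more: beside 67 higher and 519 lower, centring gave 130 and 139, quantile normalization 72 and 143, a filter at mean RPKM 5 gave 42 and 253, the TAC groups alone 8 and 71, the set term 113 and 696, and 1 set alone 0 and 1. Leaving out 1 library gave 2 to 745 higher and 19 to 2524 lower calls. WT TAC 1 gave the upper ends (745 and 2524), and WT sham 6 gave 340 and 1572. The counts were 3 and 53 without WT TAC 17, 5 and 78 without WT TAC 19, 4 and 19 without caPI3Kalpha TAC 11 and 2 and 23 without 211. Leaving out another WT sham library gave at most 26 and 245, and either caPI3Kalpha sham library 33 and 246. The 28 interaction calls became 18 (quantile, or filter 5), 12 (centred), 607 (set term), 0 (1 set alone, with 1110 at an unadjusted p under 0.05) and 3 to 66 with 1 library left out. The 104 calls in the gene lists became 66 by quantile normalization, 160 with the set term, 1 in 1 set alone and 263 without WT TAC 1. Of all 586 called genes, Mb kept no difference by quantile normalization. These signs turned, none of them of a called gene: Pln to 0.111 with the set term and 0.153 in 1 set alone, Acta1 to -0.373 with the set term, Ankrd1 to 0.101 and Timp4 to -0.126 in 1 set alone, Fbxo32 to 0.085 (quantile), 0.154 (centred) and 0.128 (set term) and from -0.157 to 0.065 with 1 library left out, and Akt1 to 0.043 (quantile) and 0.098 (centred) and from -0.223 to 0.171. With 1 library left out Nppb lay between -0.697 and 0.076 and Thbs1 between -1.578 and 0.534. The cause was not tested. Low genes are limited by the 1-decimal values.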
